A study of Saccharomyces cerevisiae with 12 samples.

Results

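Glycogen and trehalose are the reserve carbohydrates of *Saccharomyces cerevisiae*, and the genes described here encode 10 enzymes and enzyme subunits that make them or break them down. They were chosen by name for this role, and are 10 of the 6400 genes listed in the count tables: *GSY1*, *GSY2*, *GLC3*, *GPH1*, *GDB1*, *TPS1*, *TPS2*, *TSL1*, *NTH1* and *PGM2*. RNA was sequenced from mutants lacking *TUP1* or *CYC8*, or both, which encode the subunits of the Tup1-Cyc8 co-repressor complex. The mutants were *tup1* (tup1::KAN), *cyc8* (cyc8::KAN) and *tup1 cyc8* (tup1::KAN cyc8::URA3), and they were compared with the wt, BY4741. All 4 strains were MATa haploids with the alleles his3Δ1, leu2Δ0, met15Δ0 and ura3Δ0, and 3 biological replicates of each were taken in log phase in YPD medium with 2% glucose, at an OD600 between 0.6 and 0.8. This gave 12 libraries of RNA depleted of rRNA, and between 12643361 and 17898833 counts per library on named genes.

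Glucose 6-phosphate is the starting point of both reserves. Phosphoglucomutase (Pgm2p and its isoform Pgm1p) turns it into glucose 1-phosphate, and Ugp1p makes UDP-glucose from this, the glucose donor for both routes. The glycogen synthases Gsy1p and Gsy2p extend the glycogen chain and Glc3p adds its branches, whereas the phosphorylase Gph1p and the debranching enzyme Gdb1p take glycogen apart. Trehalose is made by Tps1p, which gives trehalose 6-phosphate, and Tps2p, which removes the phosphate, in a complex with the regulatory subunits Tsl1p and Tps3p. The neutral trehalase Nth1p breaks it down. Cells growing fast on glucose hold little of either, and both accumulate as glucose runs out or under stress. Many of these genes are known targets of the activators Msn2p and Msn4p, which bind the stress response element (STRE).

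The deleted genes and markers were read first. *TUP1* had between 204 and 346 counts in the *tup1* and *tup1 cyc8* libraries and between 8147 and 8828 in wt. *CYC8* had 127, 113 and 132 counts in *cyc8*, but 1029, 1320 and 890 in *tup1 cyc8*, compared with 3246 to 3518 in wt. The *CYC8* value in the double mutant was -1.15 on the log2 scale (standard error (SE) 0.10, edgeR adjusted p = 3.3e-05). The *CYC8* reads that remain in the double mutant were not traced to a part of the gene. *URA3* had 626, 687 and 411 counts in *tup1 cyc8* and at most 2 in any other library. *LEU2* and *MET17* (MET15) had 0 counts in all 12 libraries. *HIS3*, of which each strain carries the allele his3Δ1, had between 996 and 2129 counts and was called higher in *cyc8* than in wt (log2 fold change 1.17, SE 0.20, edgeR adjusted p = 0.0033). The MATa receptor gene *STE2* had 2028 or more counts in every library, and the MATα genes *STE3*, *MF(ALPHA)1* and *MF(ALPHA)2* had at most 58.

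The summed transcript level of the 10 genes was higher in each mutant than in wt, and highest in the double mutant. In normalised read counts (CPM, scaled to library size with TMM factors) it was 2908 ± 719 in *tup1*, 2664 ± 177 in *cyc8*, 5142 ± 720 in *tup1 cyc8*, compared with 813 ± 328 in wt (SD, n = 3 each). This is 3.58, 3.28 and 6.32 times the wt level. The breakdown genes *GPH1* and *GDB1* had the largest changes in every mutant, and *TPS1* the smallest. In bulk RNA from a whole culture, fewer cells that express a gene and less RNA of it in each cell cannot be told apart.

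**Figure D1:**
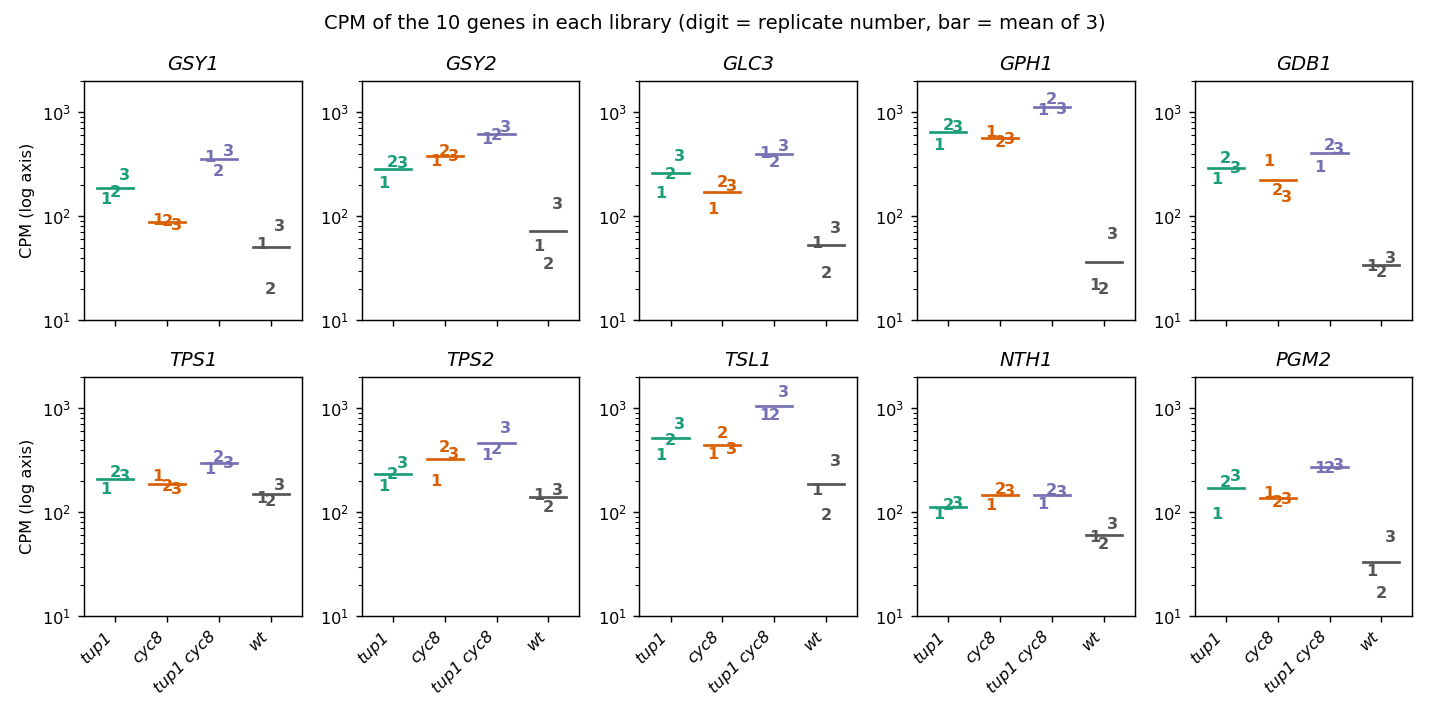
CPM (log axis) of each of the 10 genes in each library, with the strains along the x axis, the replicate number as the marker and a bar at the mean of 3. In *GPH1* the 9 mutant libraries lie between 475 and 1317 CPM, against 19.8 to 67.4 CPM in wt, whereas in *TPS1* the *tup1* and *cyc8* libraries reach into the wt range.

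All 10 genes passed the filter on low counts and were tested against wt in each mutant, with edgeR's quasi-likelihood test and Benjamini-Hochberg adjustment over all genes. Genes were called upregulated where both the log2 fold change reached 1 and the adjusted p was 0.01 or less. In *tup1*, 4 of the 10 passed both limits (*GLC3*, *GPH1*, *GDB1* and *PGM2*), where 7.27% of all genes tested did so. In *cyc8*, 6 of the 10 passed (*GSY2*, *GLC3*, *GPH1*, *GDB1*, *NTH1* and *PGM2*), against 12.5% of all genes. In *tup1 cyc8*, 10 of the 10 passed, against 13.9% of all genes. None was called downregulated in any mutant, where 1.43%, 1.91% and 1.88% of all genes were. The median log2 fold change of the 10 was 1.92 in *tup1*, 1.49 in *cyc8* and 2.86 in the double mutant, and that of all genes tested was -0.03 in each. In *tup1* and in *cyc8*, the libraries lay above every wt library in 9 of the 10 genes, all but *TPS1*, and in *tup1 cyc8* in 10 of 10. The shares of all genes tested with no overlap in this direction were 22%, 28.4% and 30.5% in the same order. The 3 comparisons share their wt libraries.

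**Figure D2:**
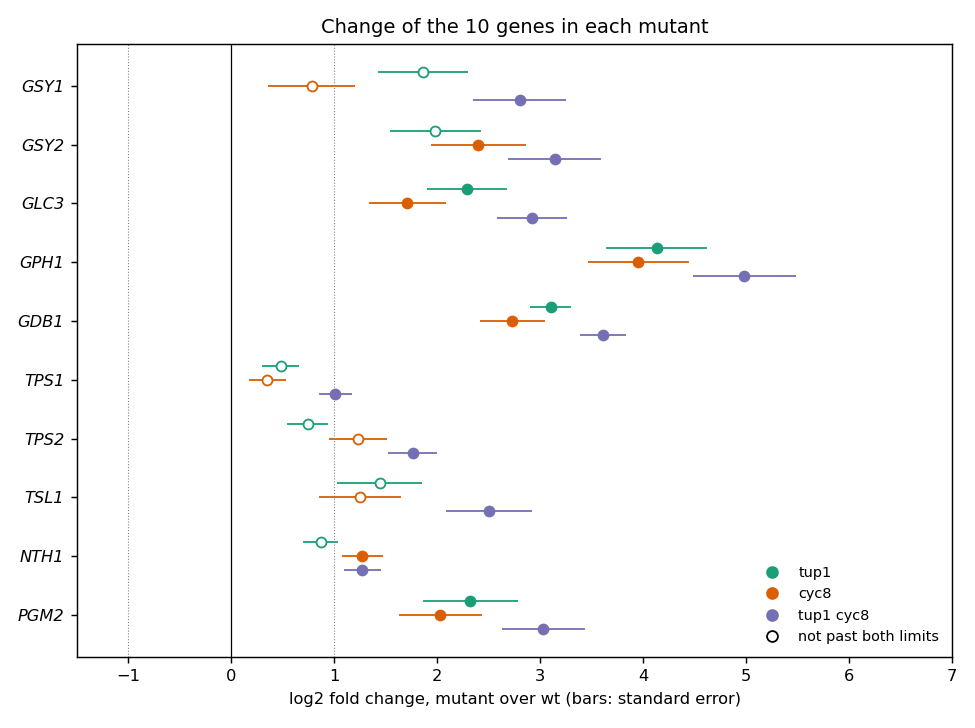
Log2 fold change of each gene in *tup1*, *cyc8* and *tup1 cyc8* over wt, with bars of 1 standard error, filled where the gene passed both limits and open where it did not, and dotted lines at the fold limit. *GPH1* lies farthest right in every mutant (3.95 to 4.98) and *TPS1* nearest 0 (0.35 to 1.01).

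The sequences upstream of the genes are shown because the 10 genes share the STRE. Many of them are known targets of Msn2p and Msn4p, so its presence was not independent of the choice of genes. The STRE (CCCCT, on either strand) occurred at least once in the 500 bases before the start codon in 10 of the 10 genes, and in 34.1% of 6000 promoters of the same length. It occurred 2 or more times in 9 of the 10, all but *GDB1*, and in 8.13% of all promoters. Words of the kind bound by Mig1p, the glucose repressor (the word GCGGGG, the word GTGGGG, the word CCGGGG or the word CTGGGG), occurred in 7 of the 10 genes and in 22.7% of all promoters. Words of the kind bound by Nrg1p (CCCTC) occurred in 3 of the 10 and in 36.3% of all promoters, and the CRE word bound by Sko1p (TGACGT) in 1 of the 10, *TPS1*, and in 13.5%. Words were searched on both strands, and words that overlap were all counted, so that a CCCCTC is both a STRE and an Nrg1-type word. The authors list a motif shared by Msn2p, Msn4p and Nrg1p, among others, so these counts need not separate the sites of these factors. The following stretches are from the R64 reference genome, 5′ to 3′ on the strand of the gene, with STREs in capitals. They hold the genes with the largest changes (*GPH1* and *GDB1*), 2 genes with clusters of STREs (*PGM2* and *TSL1*), and the gene with the most STREs and the smallest change (*TPS1*).
*GPH1* (chrXVI:860906-861066, + strand): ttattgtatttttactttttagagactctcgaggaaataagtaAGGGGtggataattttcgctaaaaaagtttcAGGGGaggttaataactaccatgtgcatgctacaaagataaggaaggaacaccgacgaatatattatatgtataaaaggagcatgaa
*GDB1* (chrXVI:901724-901914, + strand): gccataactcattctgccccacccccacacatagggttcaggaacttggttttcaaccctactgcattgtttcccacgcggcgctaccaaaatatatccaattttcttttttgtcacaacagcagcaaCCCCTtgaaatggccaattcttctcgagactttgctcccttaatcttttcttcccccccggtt
*PGM2* (chrXIII:477806-478026, - strand): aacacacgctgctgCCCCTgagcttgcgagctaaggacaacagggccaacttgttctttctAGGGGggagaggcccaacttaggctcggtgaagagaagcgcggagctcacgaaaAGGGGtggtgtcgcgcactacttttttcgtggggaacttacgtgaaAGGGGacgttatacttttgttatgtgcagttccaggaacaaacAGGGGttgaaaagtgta
*TSL1* (chrXIII:70374-70474, + strand): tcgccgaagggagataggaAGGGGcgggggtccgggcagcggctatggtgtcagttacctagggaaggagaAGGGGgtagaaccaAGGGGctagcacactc
*TPS1* (chrII:490617-490772, - strand): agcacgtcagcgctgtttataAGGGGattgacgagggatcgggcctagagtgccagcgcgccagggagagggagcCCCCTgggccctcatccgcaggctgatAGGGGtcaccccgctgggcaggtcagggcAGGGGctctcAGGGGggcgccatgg

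*GPH1* carried 2 STREs, 357 and 326 bases before its start codon, and none of the other words in the 500 bases. *GDB1* had 1 STRE, at -192, and 3 Mig1-type words. *PGM2* had 5 STREs between -406 and -216, and *TSL1* had 3 in the stretch shown and 2 more that lie inside the next gene upstream. *TPS1* had 6, of which the farthest lies inside the next gene upstream. These 5 genes were picked by their changes and their STREs, so they cannot show whether the number of STREs goes with the size of the change. That was not tested. Of the genes not shown, *GSY1* and *GSY2* had 2 STREs each, *GLC3* and *NTH1* 3 each and *TPS2* 4. A match is a description of the sequence and not evidence that a factor binds there.

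**Figure D3:**
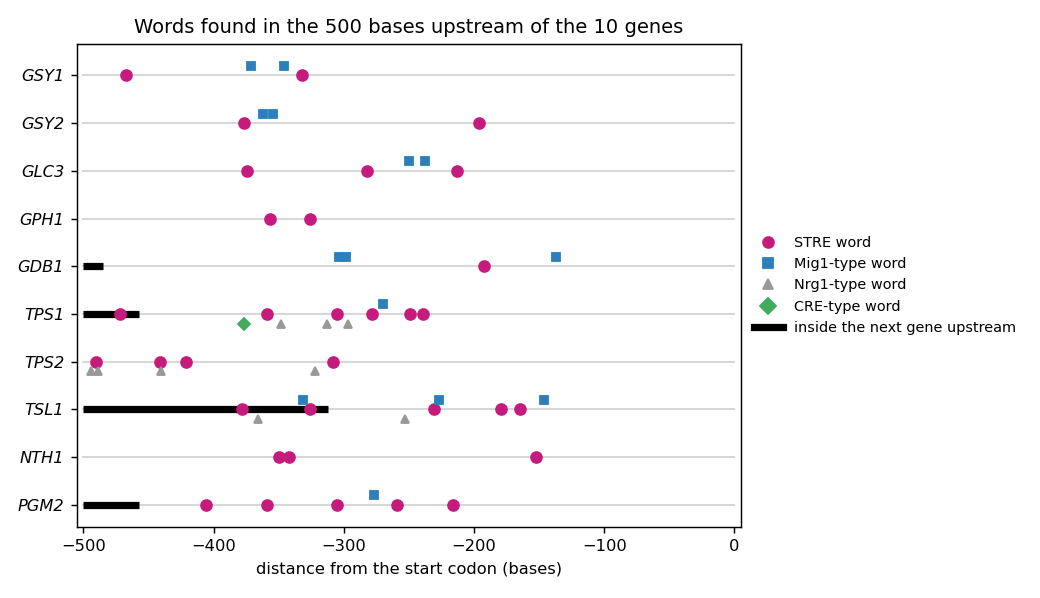
Positions of the 4 kinds of word in the 500 bases before the start codon of each gene (x axis, distance in bases), with thick lines where that stretch runs into the next gene upstream. Every gene has at least 1 STRE, *TPS1* has the most with 6, and *GPH1* and *NTH1* have no other word.

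The genes of glycogen breakdown are given first. *GPH1* (YPR160W, R64 chromosome XVI, 861306 to 864014, 1 coding exon, as for all 10 genes), the glycogen phosphorylase, had 475, 749 and 708 CPM in the *tup1* libraries (replicates 1 to 3, as for all strains), 636, 511 and 543 in *cyc8*, and 1035, 1317 and 1060 in *tup1 cyc8*, compared with 21.8, 19.8 and 67.4 in wt. All mutant libraries lay far above every wt library. The log2 fold change was 4.13 in *tup1* (SE 0.49, edgeR adjusted p = 4.0e-04), 3.95 in *cyc8* (SE 0.49, adjusted p = 6.6e-04) and 4.98 in *tup1 cyc8* (SE 0.50, adjusted p = 9.6e-05), or 17.5-fold, 15.5-fold and 31.6-fold. The third wt library was the highest of the 3, and without it these values were 4.95, 4.76 and 5.78. Without wt replicate 2, the lowest, they were 3.83, 3.66 and 4.68. Per kb of coding length, *GPH1* was the highest of the 10 genes in each mutant (238 CPM per kb in *tup1*, 208 in *cyc8*, 420 in *tup1 cyc8*) but 9th of 10 in wt, at 13.4 CPM per kb.

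*GDB1* (YPR184W, chromosome XVI, 902044 to 906654), which encodes the debranching enzyme that works with the phosphorylase, had 227, 361 and 287 CPM in the *tup1* libraries, 337, 177 and 153 in *cyc8*, and 295, 481 and 443 in *tup1 cyc8*, compared with 32.9, 28.6 and 39.4 in wt. The wt libraries lay close together here and the mutants did not overlap them. *GDB1* rose by a log2 fold change of 3.10 in *tup1* (SE 0.20, edgeR adjusted p = 9.1e-06), 2.73 in *cyc8* (SE 0.32, adjusted p = 4.4e-04) and 3.61 in *tup1 cyc8* (SE 0.22, adjusted p = 4.7e-06). In *cyc8*, replicate 1 lay well above the other libraries of its strain. The calls in all 3 mutants held when any single library was left out.

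In glycogen synthesis, the paralogous genes *GSY1* and *GSY2* had unlike patterns over the strains. *GSY2* (YLR258W, chromosome XII, 660716 to 662833), which encodes the main synthase of cells that accumulate glycogen, had 208, 326 and 321 CPM in the *tup1* libraries, 336, 421 and 379 in *cyc8*, and 552, 605 and 718 in *tup1 cyc8*, compared with 50.7, 34.5 and 129 in wt. It was called upregulated in *cyc8* (log2 fold change 2.40, SE 0.46, edgeR adjusted p = 0.0052) and in *tup1 cyc8* (3.14, SE 0.45, adjusted p = 7.6e-04). Its value of 1.98 in *tup1* missed the limit (SE 0.44, adjusted p = 0.013), and was 2.74 without wt replicate 3 (adjusted p = 6.4e-05). The same library moved the value in *cyc8* to 3.15 and that in *tup1 cyc8* to 3.88 when it was left out. In *cyc8* the call was lost without *cyc8* replicate 2 or 3 or wt replicate 1 (adjusted p 0.018 to 0.025).

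*GSY1* (YFR015C, chromosome VI, 174265 to 176391) had 145, 171 and 249 CPM in the *tup1* libraries, 91.6, 89.2 and 81.8 in *cyc8*, and 366, 269 and 421 in *tup1 cyc8*, compared with 53.8, 19.6 and 79.6 in wt. The *cyc8* libraries lay just above the highest wt library, and those of *tup1 cyc8* above all others. *GSY1* was called upregulated in *tup1 cyc8*, at a log2 fold change of 2.80 (SE 0.45, edgeR adjusted p = 0.0013). The values of 1.86 in *tup1* (SE 0.44, adjusted p = 0.015) and 0.78 in *cyc8* (SE 0.42, adjusted p = 0.17) did not pass both limits. Without wt replicate 2 or wt replicate 3, *GSY1* passed both limits in *tup1* as well, at 1.48 and 2.36.

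The ratio of *GSY1* to *GSY2*, per coding length, was 0.697, 0.524 and 0.772 in *tup1*, 0.272, 0.211 and 0.215 in *cyc8*, 0.661, 0.443 and 0.584 in *tup1 cyc8*, and 1.06, 0.566 and 0.613 in wt. Each *cyc8* library lay below each of the 9 others. Between any pair of strains, with 3 libraries against 3, an exact permutation test cannot give a p below 0.1. The ratios were not tested and are given as a description. No stretch of 31 bases of either gene recurs elsewhere in the genome.

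*GLC3* (YEL011W, chromosome V, 133120 to 135234), the branching enzyme gene, had 165, 252 and 372 CPM in the *tup1* libraries, 115, 211 and 194 in *cyc8*, and 398, 327 and 471 in *tup1 cyc8*, compared with 55.2, 28.1 and 75.9 in wt. All mutant libraries lay above wt, with the lowest of *cyc8* closest to it. *GLC3* rose by a log2 fold change of 2.29 in *tup1* (SE 0.39, edgeR adjusted p = 0.0032), 1.71 in *cyc8* (SE 0.37, adjusted p = 0.0095) and 2.92 in *tup1 cyc8* (SE 0.34, adjusted p = 2.1e-04). The call in *cyc8* lay at the limit and was lost without *cyc8* replicate 2 or 3 or wt replicate 1 or 2 (adjusted p 0.014 to 0.037), and with RLE size factors, library size alone or the replicate block (adjusted p 0.010 to 0.014). That in *tup1* was lost without *tup1* replicate 2 or 3 or wt replicate 1 (adjusted p 0.012 to 0.015).

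*PGM2* (YMR105C, chromosome XIII, 475897 to 477606), which encodes the major isoform of phosphoglucomutase, had 95.4, 191 and 219 CPM in the *tup1* libraries, 151, 125 and 131 in *cyc8*, and 261, 261 and 284 in *tup1 cyc8*, compared with 26.9, 16.4 and 56.6 in wt. The *tup1 cyc8* libraries were the most alike and lay above all the others. *PGM2* rose by a log2 fold change of 2.32 in *tup1* (SE 0.46, edgeR adjusted p = 0.0070), 2.03 in *cyc8* (SE 0.40, adjusted p = 0.0064) and 3.03 in *tup1 cyc8* (SE 0.40, adjusted p = 4.4e-04). Without wt replicate 3 the values were 2.96, 2.65 and 3.64, and without wt replicate 2 they were 1.99, 1.70 and 2.70. The *tup1* call was lost without *tup1* replicate 2 or 3 or wt replicate 1 or 2, and the *cyc8* call without any one of its 3 libraries or without wt replicate 1 (adjusted p 0.010 to 0.031 over these).

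Its paralogue *PGM1* had 134, 127 and 130 CPM in the *tup1* libraries, 84.6, 52.5 and 54 in *cyc8*, and 108, 80.3 and 103 in *tup1 cyc8*, compared with 172, 171 and 175 in wt. All mutant libraries lay below all wt libraries, and *PGM1* passed both limits in *cyc8*, where it fell by 1.44 on the log2 scale (SE 0.19, edgeR adjusted p = 9.9e-04). The ratio of *PGM2* to *PGM1* per coding length was 1.30 ± 0.518 in *tup1*, 2.20 ± 0.366 in *cyc8*, 2.81 ± 0.414 in *tup1 cyc8* and 0.192 ± 0.118 in wt (SD, n = 3 each). *PGM2* was thus the lower of the pair in every wt library and the higher in 8 of the 9 mutant libraries.

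**Figure D4:**
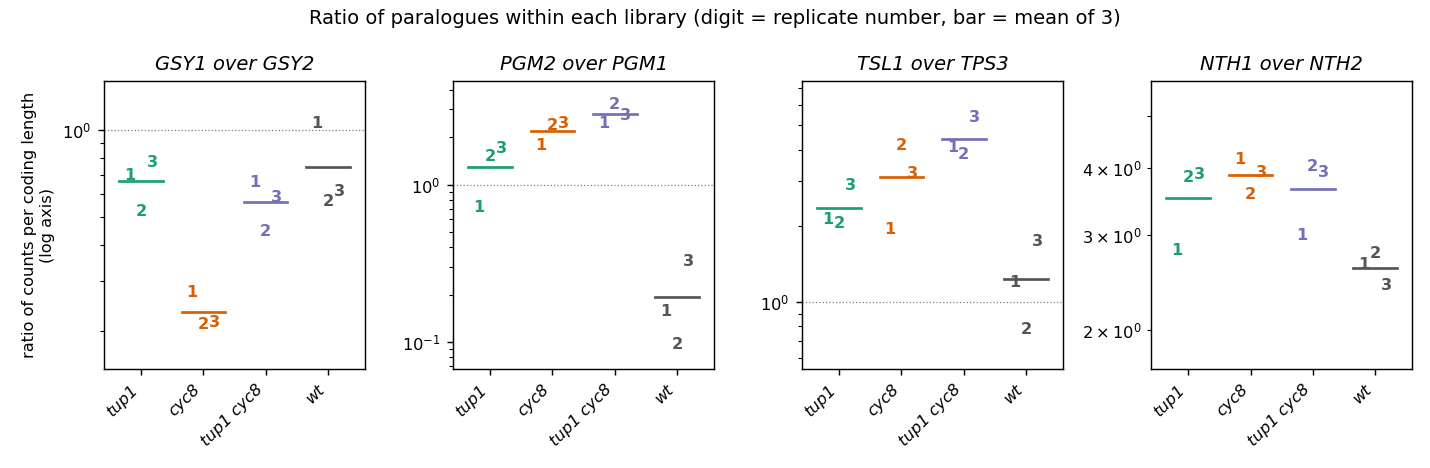
Ratio of the counts per coding length of 4 pairs of paralogues in each library (log axes), with the strains along the x axis, the replicate number as the marker and a bar at the mean of 3. *GSY1* over *GSY2* is lowest in *cyc8* (0.211 to 0.272), and *PGM2* over *PGM1* is above 1 in all mutant libraries but *tup1* replicate 1 (0.714) and below 1 in wt.

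Of the genes of trehalose synthesis, *TSL1* (YML100W, chromosome XIII, 70624 to 73920), which encodes the large regulatory subunit of the synthase complex, had 352, 492 and 693 CPM in the *tup1* libraries, 357, 571 and 404 in *cyc8*, and 857, 856 and 1432 in *tup1 cyc8*, compared with 161, 93.6 and 307 in wt. The wt libraries spread over more than a 3-fold range, with replicate 3 near the lowest mutant library. *TSL1* passed both limits in *tup1 cyc8*, at a log2 fold change of 2.5 (SE 0.42, edgeR adjusted p = 0.0017). The values of 1.44 in *tup1* (SE 0.41, adjusted p = 0.035) and 1.25 in *cyc8* (SE 0.40, adjusted p = 0.041) did not pass. Without wt replicate 3 they were 2.01 and 1.81 and passed (adjusted p = 0.0017 and 0.0058). Without wt replicate 2 they were 1.11 and 0.93 and did not pass. Over *TPS3*, which encodes the other regulatory subunit, *TSL1* stood per coding length at 2.35 ± 0.468 in *tup1*, 3.11 ± 1.12 in *cyc8*, 4.42 ± 0.816 in *tup1 cyc8* and 1.23 ± 0.477 in wt (SD, n = 3 each). *TPS3* itself passed both limits in no mutant (log2 fold changes of 0.56, 0.04 and 0.71).

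*TPS1* (YBR126C, chromosome II, 488905 to 490392), the trehalose 6-phosphate synthase gene, had 165, 239 and 222 CPM in the *tup1* libraries, 222, 177 and 164 in *cyc8*, and 255, 339 and 293 in *tup1 cyc8*, compared with 136, 127 and 180 in wt. It was the most abundant of the 10 transcripts per kb of coding length in wt (99.3 CPM per kb) and had the smallest log2 fold change in every mutant. The log2 fold change was 0.48 in *tup1* (SE 0.18, edgeR adjusted p = 0.087), 0.35 in *cyc8* (SE 0.18, adjusted p = 0.15) and 1.01 in *tup1 cyc8* (SE 0.16, adjusted p = 0.0013). The call in *tup1 cyc8* lay at the fold limit and was lost without *tup1 cyc8* replicate 2, wt replicate 1 or wt replicate 2 (0.90 to 0.96), or with library size in place of TMM (0.54).

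*TPS2* (YDR074W, chromosome IV, 593893 to 596583), the phosphatase gene, had 178 to 297 CPM in the *tup1* libraries, 199, 422 and 356 in *cyc8*, and 354 to 640 in *tup1 cyc8*, compared with 112 to 161 in wt. No mutant library overlapped wt. It was called upregulated in *tup1 cyc8* (log2 fold change 1.76, SE 0.24, edgeR adjusted p = 5.6e-04). In *cyc8* the value of 1.23 just missed the limit (SE 0.28, adjusted p = 0.011), and was 1.47 without *cyc8* replicate 1 (adjusted p = 5.1e-04). In *tup1* it was 0.74 (SE 0.20, adjusted p = 0.029).

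For trehalose breakdown, *NTH1* (YDR001C, chromosome IV, 450220 to 452475), the neutral trehalase gene, had 95.5, 117 and 122 CPM in the *tup1* libraries, 115, 166 and 157 in *cyc8*, and 119, 161 and 154 in *tup1 cyc8*, compared with 57, 49.3 and 75.5 in wt. Here *cyc8* and *tup1 cyc8* covered nearly the same range. *NTH1* rose by a log2 fold change of 1.27 in *cyc8* (SE 0.20, edgeR adjusted p = 0.0024) and of 1.27 in *tup1 cyc8* (SE 0.18, adjusted p = 7.6e-04). In *tup1* the value of 0.87 passed the limit on the adjusted p (0.0065, SE 0.17) but not that on the fold change. It was 1.07 without wt replicate 3 and 0.74 without wt replicate 2. The *cyc8* call was lost without *cyc8* replicate 2 or 3 or wt replicate 1 or 2 (adjusted p 0.011 to 0.015). With library size in place of TMM, *NTH1* was at 0.91 in *cyc8* and 0.79 in *tup1 cyc8* and passed in neither. Its less abundant paralogue *NTH2* had log2 fold changes of 0.43, 0.69 and 0.77 in *tup1*, *cyc8* and *tup1 cyc8* and passed both limits in none.

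The wt libraries were not alike in these genes. The third wt library was the highest of its strain in 10 of the 10 genes, with a median ratio of 2.00 to the mean of the other libraries (range 1.25 to 3.24), and over all genes this library was the highest in 43.1%, with a median ratio of 1.01. The second was the lowest in 10 of the 10 genes (29.6% of all genes were lowest in it), and so was the first *tup1* library in its strain (36.3% of all genes). For the second wt library the median ratio of the 10 genes to the mean of the other wt libraries was 0.436. In the list of 8 general stress genes wt replicate 3 was the highest in 7, with a median ratio of 2.09. The part of this library in the results was measured by leaving it out, which raised the number of the 10 genes called upregulated to 8 in *tup1* and 7 in *cyc8* and kept 10 in *tup1 cyc8*, where 8.66%, 12% and 14.6% of all genes were called upregulated. Without wt replicate 2 the counts were 4, 4 and 9 in the same order. The median log2 fold change of the 10 genes was then 1.56, 1.27 and 2.51, against 2.51, 1.93 and 3.27 without wt replicate 3. Of the other libraries, leaving out *tup1* replicate 2 or 3 or wt replicate 1 lowered the count in *tup1* to 2, and leaving out *cyc8* replicate 2 or 3 or wt replicate 1 lowered that in *cyc8* to 2. The shares of all genes called in these fits were not counted, so whether these drops are particular to the 10 genes was not tested.

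The single mutants were compared directly in a fit of all 12 libraries, to ask whether loss of *CYC8* and loss of *TUP1* had unequal effects on the 10 genes. Calls here used an adjusted p of at most 0.01 with no limit on the fold change. None of the 10 differed between *cyc8* and *tup1* at this limit, where 9.77% of all genes were higher in *cyc8* and 5.00% lower. The log2 differences, *cyc8* over *tup1*, ran from -1.11 in *GSY1* to 0.47 in *TPS2*, with a median of -0.20. *GSY1* was lower in each *cyc8* library than in each *tup1* library (81.8 to 91.6 against 145 to 249 CPM, a lack of overlap shown by 19.4% of all genes), with an SE of 0.37 and an edgeR adjusted p of 0.038. In a fit of these 6 libraries alone *GSY1* passed, at -1.11 (adjusted p = 0.0060), as it did with DESeq2 (-1.10, adjusted p = 0.0092), but not with the replicate block in the fit of 6 (-1.07, adjusted p = 0.023) or when any single *cyc8* or *tup1* library was left out of the fit of 12 (adjusted p 0.042 to 0.14). *GSY2* was the 1 gene of the 10 that was higher in each *cyc8* library than in each *tup1* library, as were 21.6% of all genes, but its difference of 0.41 did not pass (SE 0.36, adjusted p = 0.41). At an unadjusted p under 0.05, 1 of the 10 was lower in *cyc8*, *GSY1*, as were 20.4% of all genes, and 0 were higher, against 22.4% of all genes.

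The double mutant was then compared with each single mutant. Against *tup1*, 10 of the 10 values lay above 0 in *tup1 cyc8*, between 0.37 in *NTH1* and 1.13 in *GSY2*, with a median of 0.75, but none passed in the fit of 12 libraries (9.26% of all genes were called higher and 4.62% lower). The *tup1 cyc8* libraries lay above all *tup1* libraries in 7 of the 10 genes, all but *GLC3*, *GDB1* and *NTH1*, and 27% of all genes showed no overlap in this direction. Deviations from the strain mean correlated at 0.189 to 0.334 between libraries of these strains with the same replicate number. The labels name no shared batch, so whether these libraries were paired is not known. In a fit of the 6 libraries 2 of the 10 genes passed (*GSY2* and *GPH1*), where 11.1% of all genes were called higher. With the replicate number added as a block 6 of the 10 passed, against 12.9% of all genes: *GSY1* (0.89, edgeR adjusted p = 0.0021), *GSY2* (1.13, 3.7e-04), *GPH1* (0.82, 0.0018), *TPS1* (0.49, 0.0059), *TPS2* (0.95, 4.2e-04) and *TSL1* (1.02, 5.8e-04). With the block in the fit of 12 libraries 1 gene passed, *TPS2* (0.98, adjusted p = 0.0095), as it did with DESeq2 (0.99, adjusted p = 0.0039). The shares of all genes called higher in these settings were 8.59% and 12.4%. At an unadjusted p under 0.05, 6 of the 10 were higher in the fit of 12, as were 23.5% of all genes.

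Against *cyc8*, *GSY1* was called higher in *tup1 cyc8*, by a log2 difference of 2.01 (SE 0.38, edgeR adjusted p = 0.0051), with 366, 269 and 421 CPM in *tup1 cyc8* against 91.6, 89.2 and 81.8 in *cyc8*. It was the 1 gene of the 10 called, where 3.09% of all genes were called higher and 0.801% lower. This call was lost without *cyc8* replicate 2 or 3 or *tup1 cyc8* replicate 1 or 3 (1.83 to 1.99, adjusted p 0.018 to 0.032). Without *cyc8* replicate 1, *GDB1* passed too (1.28, adjusted p = 0.0029), and without both that library and wt replicate 3, a setting chosen after the data were seen, 4 of the 10 passed, against 8.9% of all genes. The remaining values ran from -0.01 in *NTH1* (SE 0.19) to 1.24 in *TSL1* (SE 0.38), and 7 of the 10 genes, all but *GDB1*, *TPS2* and *NTH1*, had no overlap between the strains, against 15.1% of all genes.

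The change in *tup1 cyc8* was also set against the sum of the changes in the single mutants on the log2 scale, to ask whether the deletions added up. The difference from this sum was tested as an interaction in the fit of 12 libraries. It was below 0 in 8 of the 10 genes, with a median of -1.0 against -0.03 for all genes, and passed in *GPH1* (-3.13, SE 0.53, edgeR adjusted p = 0.0011) and *GDB1* (-2.25, SE 0.40, adjusted p = 0.0018), where 6.79% of all genes were called below the sum and 2.32% above it. In this fit *GPH1* was 4.15 higher in *tup1* than in wt and 1.01 higher in *tup1 cyc8* than in *cyc8*. *GDB1* was 3.12 higher in *tup1* than in wt and 0.87 higher in *tup1 cyc8* than in *cyc8*. The values for *GSY1* (0.12, SE 0.52) and *TPS1* (0.16, SE 0.26) did not pass. Both calls held without any single library (-3.94 to -2.84 for *GPH1* and -2.47 to -1.83 for *GDB1*). Without wt replicate 3, *GSY2* (-2.02), *NTH1* (-1.09) and *PGM2* (-1.98) passed as well, and 7.71% of all genes were called below the sum.

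Of 21 other genes of reserve carbohydrate metabolism and its control, 5 were called upregulated in *tup1* (median log2 fold change 0.43), 6 in *cyc8* (0.27) and 8 in the double mutant (0.71). Of all genes tested, 7.27%, 12.5% and 13.9% were called upregulated in the same order, with a median of -0.03 in each. *PGM1*, in *cyc8*, was the 1 gene of the 21 called downregulated, where 1.91% of all genes were. The largest changes were those of *GAC1* and *SGA1*, which exceeded those of *GPH1* in every mutant. *GAC1*, which encodes a subunit that directs the phosphatase Glc7p to glycogen synthase and so activates it, had 328, 314 and 325 CPM in the *tup1* libraries, 697, 1519 and 1391 in *cyc8*, and 1637, 1212 and 1552 in *tup1 cyc8*, compared with 15.7, 11.8 and 20 in wt. Its log2 fold changes were 4.33 in *tup1* (SE 0.19, edgeR adjusted p = 9.1e-07), 6.25 in *cyc8* (SE 0.39, adjusted p = 1.8e-05) and 6.55 in *tup1 cyc8* (SE 0.25, adjusted p = 3.3e-07). *GAC1* was also called higher in *cyc8* than in *tup1* (1.90, SE 0.26, adjusted p = 2.7e-04).

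*SGA1*, which encodes a glucoamylase that degrades glycogen in sporulating cells, had 129 to 153 CPM in the *tup1* libraries, 205 to 275 in *cyc8* and 239 to 266 in *tup1 cyc8*, compared with 2.57 to 3.65 in wt. Its log2 fold changes were 5.40, 6.24 and 6.27 (edgeR adjusted p at most 1.5e-06). *GIP2*, a further targeting subunit of Glc7p, rose by 2.28, 2.19 and 2.96, and *UGP1*, which makes the UDP-glucose for both routes, by 1.79, 2.65 and 2.69. The level of *UGP1* was 954 ± 156 CPM in the *tup1* libraries, 1711 ± 342 in *cyc8* and 1743 ± 126 in *tup1 cyc8*, compared with 272 ± 99.3 in wt (SD, n = 3 each).

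Among the genes that phosphorylate glucose, the glucokinase gene *GLK1* rose in all 3 mutants (2.20, 2.75 and 3.03) but overlaps YCL042W on the same strand, so its counts are uncertain. The hexokinase gene *HXK1* was called in *cyc8* (4.58) and *tup1 cyc8* (4.98) but not in *tup1* (3.72, SE 0.89, edgeR adjusted p = 0.017), with 599 to 996 CPM in the *tup1* libraries, 1307 to 1673 in *cyc8* and 1843 to 1997 in *tup1 cyc8*, compared with 19.2, 11.7 and 154 in wt, again highest in replicate 3. The hexokinase gene *HXK2* had the highest mean of these genes in wt, 2071 CPM against 197 for *GLK1* and 61.6 for *HXK1*. *HXK2* passed both limits in no mutant, at -0.68 in *tup1* (edgeR adjusted p = 0.0023), -0.11 in *cyc8* and 0.56 in *tup1 cyc8*. The glycogenin gene *GLG1*, which primes glycogen, and the acid trehalase gene *ATH1* passed in *tup1 cyc8* (1.37 and 1.57) and in neither single mutant. The genes for the phosphatase Glc7p itself, the kinase Pho85p and its cyclins Pcl8p and Pcl10p passed in no mutant, with values between -0.23 and 0.19.

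**Figure D5:**
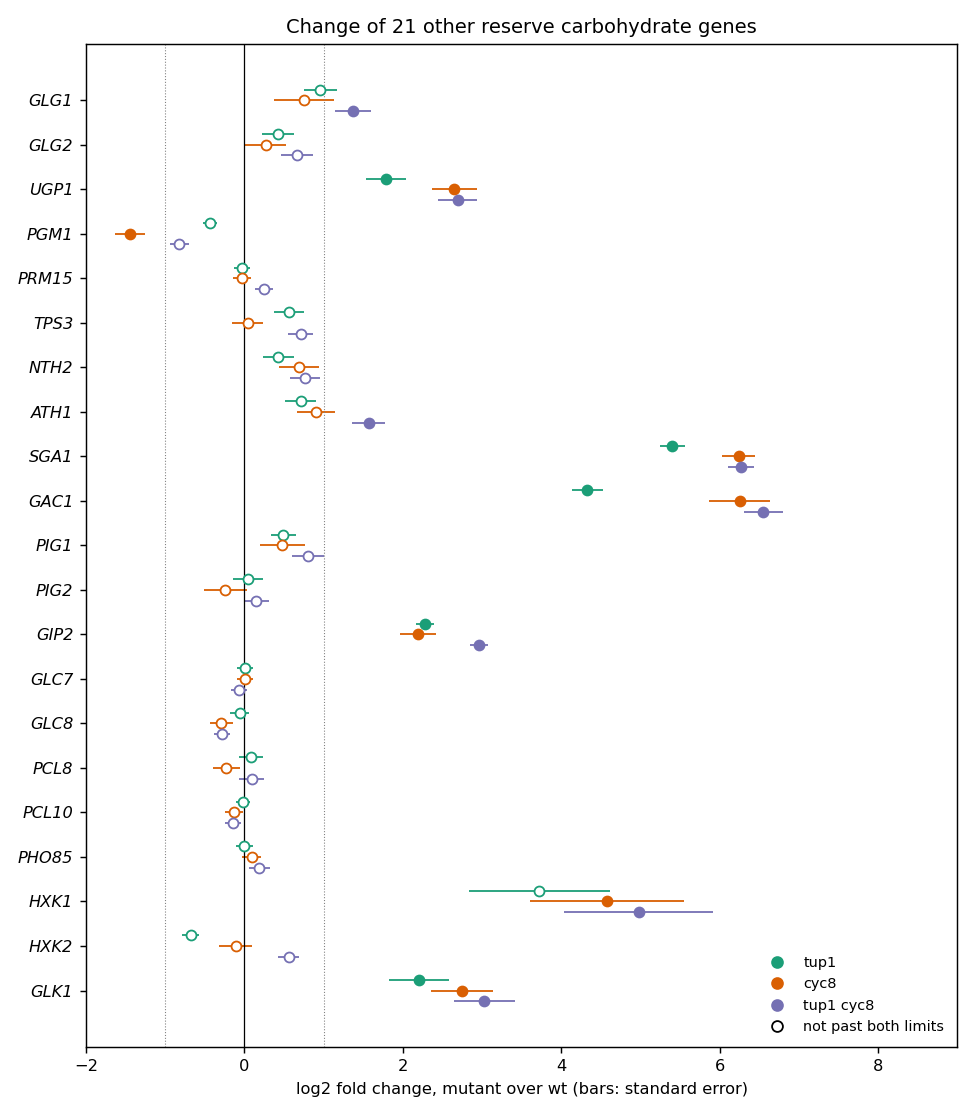
Log2 fold change of the 21 other genes of the list in *tup1*, *cyc8* and *tup1 cyc8* over wt, with bars of 1 standard error, filled where the gene passed both limits and open where it did not, and dotted lines at the fold limit. *GAC1* and *SGA1* lie farthest right (4.33 to 6.55), *PGM1* lies left of 0 in every mutant, and *GLC7*, *PCL10* and *PHO85* lie near 0.

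Of 8 general stress genes, which respond to heat and other stresses, 5 were called upregulated in *tup1* (median log2 fold change 2.70), 5 in *cyc8* (2.75) and 6 in the double mutant (3.82). The shares of all genes called upregulated were 7.27%, 12.5% and 13.9%, and the median of all genes was -0.03 in each mutant. Of the list, *HSP12* had the largest value in *cyc8* (8.53) and the catalase gene *CTT1* rose by 4.43, 3.83 and 4.82. *HSP26* rose by 6.21, 7.67 and 8.39 and *DDR2* by 3.53, 3.94 and 4.15, and *HSP42* passed in *tup1 cyc8* only (1.34). With all libraries in the fit, the heat shock genes *HSP104* and *SSA4* passed both limits in no mutant, with values between -0.25 and 1.17. Without wt replicate 3, 8 of the 8 stress genes passed in *tup1 cyc8*, where 14.6% of all genes were called upregulated. The number was still 5 in *tup1* and 5 in *cyc8*. *ALD3* was called in all 3 mutants, but 49.5% of its stretches of 31 bases recur elsewhere in the genome, so its counts are uncertain.

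Over the 12 libraries, the genes whose profile was nearest to that of *GPH1* among the 5985 compared were *TDH1*, *CTT1* and *CYC7*, by the mean absolute difference of log2(CPM + 1) after the wt mean was taken off (0.35, 0.38 and 0.40). *TDH1*, a glyceraldehyde 3-phosphate dehydrogenase gene, had log2 fold changes of 4.11, 4.03 and 5.62 in *tup1*, *cyc8* and *tup1 cyc8*, and *CYC7*, a cytochrome c gene, had 4.80, 4.65 and 5.04. By the same measure, the closest pairs within the 10 genes were *TPS2* with *NTH1* (0.23), *GLC3* with *PGM2* (0.24) and *GSY2* with *PGM2* (0.25).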

How the data were processed

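Strand-specific RNA-seq was run on 3 biological replicates of *tup1*, *cyc8*, *tup1 cyc8* and wt. According to the methods, reads were trimmed with Trimmomatic 0.36, mapped to S288c with STAR 2.5.2b and counted with featureCounts (Subread 1.5.2); the strand setting and annotation release are not given in the sources used here. The authors deposited raw counts per gene, 1 table per mutant with the same wt columns; their normalised tables were not used. A line without a gene name (0.0647% to 0.34% of counts) was left out. Depth was 12643361 to 17898833 counts per library.

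Counts were filtered with filterByExpr, scaled with TMM and tested with the quasi-likelihood F-test of edgeR 4.0.16 (limma 3.58.1, R 4.3.3), mutant against wt in fits of 6 libraries and mutant against mutant, with the interaction, in a fit of 12. Standard errors are the log2 fold change over the square root of F. Python 3.11.15 gave the summaries and matplotlib 3.10.9 the plots. Words and coordinates are from the R64 genome. The tests were checked on simulated data.

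Alternatives changed the test (DESeq2 1.42.0), scaling, filter, adjusted p limit (0.05), libraries in the fit, replicate block, and left out each library. The labels name no shared batch. Residuals of same-number libraries correlated at 0.189, 0.334 and 0.222 between *tup1* and *tup1 cyc8*, all over the limit of 0.1. No other pair of strains met this limit in 3 of 3. With wt, the same-number values ran from -0.14 to 0.344 for *tup1* and from -0.0482 to 0.0786 for *tup1 cyc8*. These correlations do not establish that the *tup1* and *tup1 cyc8* libraries were paired. The fits with the replicate block are therefore given as alternatives only. The genes named are the 10, list genes past both limits in a mutant, paralogues, deleted and marker genes, and the 3 genes nearest *GPH1*; unchanged list genes were named after their values were seen. The genes and lists were chosen with earlier results of these data known. *PGM3* is listed as *PRM15* and *MET15* as *MET17*.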

Additional observations from a re-analysis of the deposited data

Results flagged for a closer look

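The effect of deleting *TUP1* differed between *CYC8* and *cyc8* cells for 2 of the 10 genes, by the interaction test of edgeR over 12 libraries. For *GPH1* the interaction was -3.13 on the log2 scale (SE 0.53, edgeR adjusted p = 0.0011), from 1.01 in *tup1 cyc8* over *cyc8* and 4.15 in *tup1* over wt in the same fit. For *GDB1* it was -2.25 (SE 0.40, adjusted p = 0.0018), from 0.87 in *tup1 cyc8* over *cyc8* and 3.12 in *tup1* over wt in the same fit. The share of all genes with an interaction called below 0 was 6.79%. Both calls held when any single library was left out.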

How the results depend on the processing

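No member called against wt changed sign under any alternative. The number of members called higher in *tup1* than in wt was 7 with the replicate block and 7 at an adjusted p of 0.05. For members lower in *cyc8* than in *tup1*, 1 was called with DESeq2, 1 in a fit of the 6 libraries, 1 at an adjusted p of 0.05 and 1 without wt replicate 3 and *cyc8* replicate 1 (a setting chosen after seeing the data), against 0. For members higher in *tup1 cyc8* than in *tup1*, 1 was called with the replicate block, 1 with DESeq2, 2 in a fit of the 6 libraries, 6 in that fit with the block and 2 at 0.05, against 0. In *tup1 cyc8* against *cyc8*, 3 members were called with DESeq2, 3 in the fit of 6, 3 at 0.05 and 4 without wt replicate 3 and *cyc8* replicate 1, against 1, and for the interaction 5 in the last setting, against 2. The share of all genes called was not counted for every setting, and the cause of these shifts was not tested. With each library left out in turn, members called ran from 2 to 8 in *tup1* against wt, 2 to 7 in *cyc8* against wt (9 without wt replicate 3 and *cyc8* replicate 1), 0 to 2 in *tup1 cyc8* against *cyc8* and 2 to 5 for the interaction. For the list of 21 other reserve genes, the counts called in either direction ran from 4 to 7, 6 to 8 and 7 to 9 in *tup1*, *cyc8* and *tup1 cyc8*. With all libraries these counts were 5, 7 and 8, *PGM1* in *cyc8* being the gene called downregulated. In *tup1*, *GSY1* and *GSY2* passed with DESeq2 (adjusted p = 0.0083 and 0.0080). Library size in place of TMM moved the median of all genes to -0.16, -0.38 and -0.50 in *tup1*, *cyc8* and *tup1 cyc8*, with 4, 4 and 8 members called.

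The values that changed sign were all uncalled. They were *TSL1* in *cyc8* against *tup1* (0.07 without *tup1* replicate 3, in a range from -0.42), *NTH1* in *tup1 cyc8* against *cyc8* (0.06, 0.03 and 0.09 without *cyc8* replicate 2, *cyc8* replicate 3 or *tup1 cyc8* replicate 1, in a range from -0.18), and, for the interaction, *GSY1* (-0.03 with the replicate block, -0.03, -0.04 and -0.35 without *tup1* replicate 1, *tup1 cyc8* replicate 3 or wt replicate 3, and -0.34 without wt replicate 3 and *cyc8* replicate 1, in a range up to 0.51), *TPS1* (-0.01 without wt replicate 3, in a range up to 0.28) and *TSL1* (0.07 and 0.11 without *tup1* replicate 3 or wt replicate 2, in a range from -0.93). With 3 libraries per strain and a spread in wt as wide as that of *GSY1* (19.6 to 79.6 CPM), values near the limits were not settled at this number of replicates.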
